A study of Mus musculus with 8 samples.

Results

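The genes described here are the long noncoding RNA genes that mouse pancreatic beta cells expressed, and what became of them when Chd4 was deleted. They were chosen by annotation and by level: a gene had to be of the GENCODE M21 type lincRNA (intergenic) or antisense, lie on an autosome, and reach 5 TPM in at least 4 of the 8 libraries. Meg3, H19, Rian, Mirg, Airn, Kcnq1ot1 and Gm11747 were left out by name. Of 7886 autosomal lincRNA and antisense genes outside these 7 names, 750 met the rule, 609 of type antisense and 141 of type lincRNA. TPM is a level scaled for gene length and for the library total, so it can be compared between genes.

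The libraries came from beta cells that were flow-sorted from dispersed islets. Of the 8 libraries, 4 Chd4KO libraries came from tamoxifen-treated mice with a beta-cell deletion of Chd4, and 4 Control libraries came from tamoxifen-treated control mice. The Cre driver, the age and sex of the mice, the extent of deletion, and the genotype of the controls beyond the word Control are not given in the sources used here. Titles give every library a separate number after Chd, read here as an animal number, though the titles do not say so. Every Chd4KO number is above every Control number, so any difference in birth or collection date cannot be told apart from genotype.

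A long noncoding RNA is transcribed and often spliced like a messenger RNA but has no long reading frame. Such RNAs are usually less abundant and more restricted to single tissues than messenger RNAs, and some act in the nucleus, as Malat1 in nuclear speckles or Neat1 as the scaffold of paraspeckles. Many start next to or inside a coding gene, on the opposite strand, and in islets a few are known to affect that neighbour, as the human counterpart of Plut does for PDX1. Chd4 is the ATPase of the NuRD complex, which moves nucleosomes and removes acetyl groups from histones.

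Chd4 had 8.38, 6.18, 5.27 and 2.59 TPM in the Chd4KO libraries, against 16, 13.4, 11.1 and 12.3 TPM in the Control libraries. Every Chd4KO library lay below every Control library, and the log2 difference was -1.18 ± 0.29 (SE), with a limma adjusted p of 0.0725. Recovered reads per library, in M (mega-reads), were 14.9 to 20.2 in Chd4KO and 16.4 to 41.0 in Control. Insulin transcripts took 36.4, 32.4, 47.0 and 62.0% of TPM in Chd4KO libraries 1 to 4, against 38.1 to 41.8% in Control libraries. Summed acinar markers (15 genes) were 3.82 to 41566 TPM in Chd4KO libraries, the highest in replicate 2, against 9.23 to 1658 TPM in Control libraries. Counts of calls are therefore also given without Chd4KO replicates 2 and 4, and so is each call that their removal ended. In sorted bulk RNA, fewer cells that make a transcript and less of it per cell cannot be told apart.

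For most of the 750 genes, part or all of the signal may belong to a coding gene in these libraries. Per the labels' protocols the cDNA kit was SMART-Seq v4 with Nextera XT, which does not mark strand, so reads of a noncoding gene and of a coding gene across from it cannot be told apart. Exons of 594 of the 750 genes (79.2%) overlapped exons of a protein-coding gene, and 37 lay wholly inside them. Over the whole annotation, 74 lincRNA or antisense genes on autosomes lay wholly inside coding exons, and 64 of these had a TPM above 0 in at least 1 library, so reads in such overlaps were counted for the noncoding gene too. The other 156 genes were free of coding exons: 109 of type lincRNA and 47 of type antisense. They share no exon with a coding gene, but 42 of them lie inside or across the span of their nearest one. There, reads from introns of the coding gene cannot be told apart from theirs. Exons of 25 of the 156 also overlap those of an annotated gene that is not protein coding. The results below keep the free and the sharing genes apart.

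The bases below come from the GENCODE M21 transcripts (GRCm38) of the 6 genes free of coding exons that had the largest log2 differences among those called below. Each run is in the transcript's 5′ to 3′ direction around its first exon junction, and the 20 capitals are the 10 bases on either side of that junction, the part that a spliced read would cross. The runs are at most 200 bases long.
Gm48684: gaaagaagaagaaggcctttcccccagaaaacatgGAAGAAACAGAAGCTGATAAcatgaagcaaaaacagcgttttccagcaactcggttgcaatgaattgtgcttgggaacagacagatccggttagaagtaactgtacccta
Gm44850: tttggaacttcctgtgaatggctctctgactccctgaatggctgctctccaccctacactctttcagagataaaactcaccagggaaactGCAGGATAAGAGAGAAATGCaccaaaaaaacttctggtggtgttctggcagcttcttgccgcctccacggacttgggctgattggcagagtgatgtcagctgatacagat
Gm34759: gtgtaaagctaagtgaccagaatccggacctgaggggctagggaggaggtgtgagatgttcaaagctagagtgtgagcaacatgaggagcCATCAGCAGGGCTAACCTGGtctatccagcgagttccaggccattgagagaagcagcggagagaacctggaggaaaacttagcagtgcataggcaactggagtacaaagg
Gm13003: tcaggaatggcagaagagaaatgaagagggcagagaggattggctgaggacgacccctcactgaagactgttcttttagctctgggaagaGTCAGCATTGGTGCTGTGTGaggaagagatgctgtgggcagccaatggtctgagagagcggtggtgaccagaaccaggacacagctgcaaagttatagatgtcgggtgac
Gm27168: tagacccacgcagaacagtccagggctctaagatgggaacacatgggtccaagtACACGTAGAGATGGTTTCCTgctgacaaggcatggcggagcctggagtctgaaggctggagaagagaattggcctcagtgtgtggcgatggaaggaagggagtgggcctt
Gm27167: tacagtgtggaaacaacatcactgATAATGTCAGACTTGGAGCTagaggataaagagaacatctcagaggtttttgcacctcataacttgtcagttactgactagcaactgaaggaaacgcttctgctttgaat

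Gm48684 lies on the plus strand of chromosome 13 from 107034284 to 107035217 and has 2 exons with 340 bases in all. Gm44850 is a 2-exon gene of 1329 exonic bases on the minus strand of chromosome 7, from 128215616 to 128220788, within the span of Itgad. Gm34759 has 6 exons (chromosome 15, 12068248 to 12085197, minus strand) and Gm13003 has 4 (chromosome 4, 137159082 to 137165066, minus strand). Gm27168 (chromosome 8, 86920477 to 86921147, minus strand) and Gm27167 (86902453 to 86919422, plus strand) are neighbours on opposite strands with 1055 bases between their spans. No function is annotated for any of these 6 in the sources used here.

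Chosen as they were for level, the 750 genes ranged widely in it. The median of the mean TPM was 9.41 for the 156 free genes and 15.9 for the 594 that share coding exons. Only 3 free genes averaged over 100 TPM, which were Malat1, Gm27168 and Gm10076, while 54 of the sharing genes did. Among the 15 highest, 14 shared coding exons and 7 lay wholly inside them. Gm28902 led with 4128 ± 216 TPM in Chd4KO and 3630.3 ± 584 TPM in Control (SD, n = 4 each); it lies across from Resp18, a protein of secretory granules, and has 18.6% of its exon length in coding exons. Gm44170, across from the translocon subunit gene Sec61a1, Gm17041, across from the cytokine signalling inhibitor gene Cish, and Gm11175, across from the transcription factor gene Jund, lay wholly inside coding exons. Malat1 was the single free gene of the 15, at 1382, 1491, 1418 and 1282 TPM in Chd4KO libraries and 1338, 1696, 1533 and 1381 TPM in Control libraries. Its groups overlapped, with a log2 difference of -0.09 ± 0.16 (adjusted p = 0.774).

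At the level threshold the values were close together. The fourth highest TPM was 5.02 for Gm29361, 5.04 for Gm12758, 5.10 for AC127690.2 and 5.11 for Gm13205, just inside it. Just outside it, the fourth highest was 4.98 for 1110019D14Rik, 4.97 for Gm44238, and 4.93 for both Gm17231 and 1810062O18Rik. Since the rule asked for 4 libraries and each group has 4, a gene could pass through one genotype alone. In this way 2 genes passed only through Chd4KO (Gm48684 and Gm17120) and 11 only through Control, so for these 13 the rule itself kept the groups from overlapping and their calls are no support for a count. The other 737 did not pass through 1 genotype alone.

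**Figure D1:**
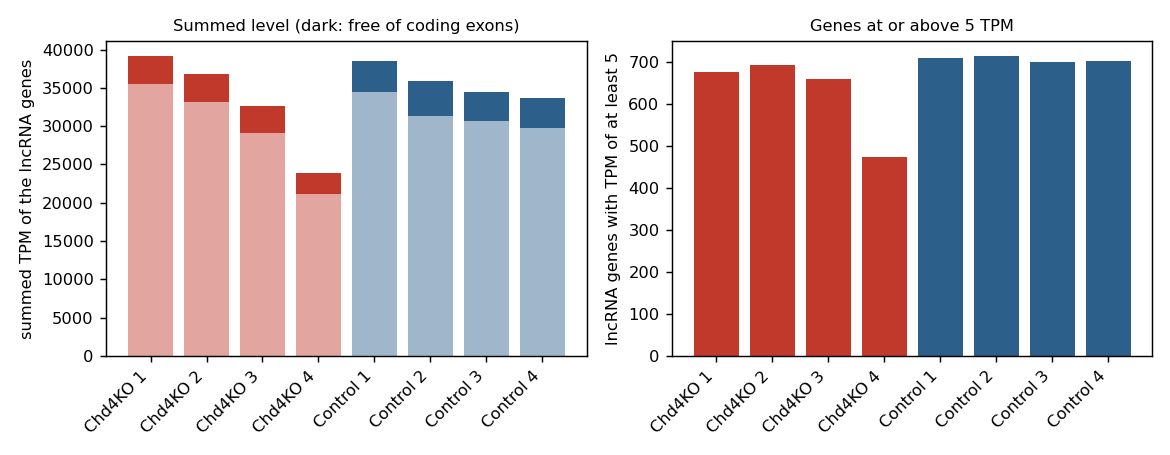
Left, summed TPM of the 750 long noncoding RNA genes in each library, Chd4KO (red) and Control (blue); the dark part is the 156 genes free of coding exons. Right, how many of the 750 reached 5 TPM. Chd4KO replicate 4 was lowest in both panels, with 2.39% of all TPM and 473 genes.

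The 750 genes together took 3.91, 3.68, 3.26 and 2.39% of all TPM in Chd4KO libraries 1 to 4 and 3.85, 3.59, 3.45 and 3.37% in Control libraries. The bar plot of these sums shows overlapping groups, with Chd4KO replicate 4 below the rest. In that replicate 473 of the genes reached 5 TPM, against 660 to 694 in the other Chd4KO libraries and 701 to 714 in Control libraries. Replicate 4 is also the library with the highest insulin share, 62.0%, and its part in these values was not tested. The median SD of log2(TPM + 1) over libraries was 0.56 in Chd4KO and 0.21 in Control for the 750 genes, and 0.52 and 0.16 for coding genes that met the same level rule, so the noncoding genes shared a wider spread among Chd4KO mice with coding genes. Without replicate 4 the Chd4KO value for the 750 genes was 0.31.

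Whether Chd4 deletion changed these genes was tested with limma on log2(TPM + 1), fitted to all 15189 genes with at least 1 TPM in at least 4 libraries. A gene with a Benjamini-Hochberg adjusted p under 0.05 over all of them is said here to have risen or fallen in Chd4KO, or to be called. Of all genes tested 2.97% were called, 1.53% higher and 1.44% lower. Of the 750 long noncoding RNA genes 23 were called (3.07%), 9 higher (1.2%) and 14 lower (1.87%). Of these calls 7 fell on the 13 genes that had passed the level rule through 1 genotype alone. The other 737 genes had 16 calls (2.17%), 7 higher and 9 lower, beside 1.63% of all genes that met the level rule other than through 1 genotype alone. The groups did not overlap for 119 of the 750 genes (15.9%), against 14.8% of all genes tested. They did not overlap for 106 of the 737 (14.4%), beside 13.8% of all genes that met the level rule other than through 1 genotype alone. The median log2 difference was -0.28 over the 750 genes and -0.25 over all genes tested, so most of the median fall was shared with the whole table.

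Among the 156 genes free of coding exons 8 were called (5.13%), 1 higher (0.641%) and 7 lower (4.49%). Of the 594 sharing genes 15 were called (2.53%), 8 higher (1.35%) and 7 lower (1.18%). Background shares among all genes at the same level were 2.41% called, 1.05% higher and 1.35% lower. Of the 8 called free genes 4 passed the level rule through 1 genotype alone: Gm48684 through Chd4KO, and Gm34759, 2810001G20Rik and Gm12976 through Control. Without all 8 free genes that passed in this way, 4 of 148 were called (2.7%), each of them lower, and of the sharing genes 12 of 589 (2.04%). The groups did not overlap for 34 of the 156 (21.8%) and for 85 of the 594 (14.3%), against 14.8% of all genes tested. Without the genes that passed through 1 genotype they did not overlap for 26 of 148 (17.6%) and 80 of 589 (13.6%). The share was 13.8% of the 9815 genes at the same level that did not pass in this way. Without Chd4KO replicates 2 and 4, 14 of the 156 were called (8.97%), 3 higher and 11 lower. That setting was chosen after the data were seen. The share in it was 6.53% over the 750 genes, 5.17% over all genes tested and 4.61% over all genes at the same level. Genes that passed through 1 genotype alone were kept in these shares. Because 1 was added to each TPM before taking logs, differences of genes near 1 TPM are understated.

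**Figure D2:**
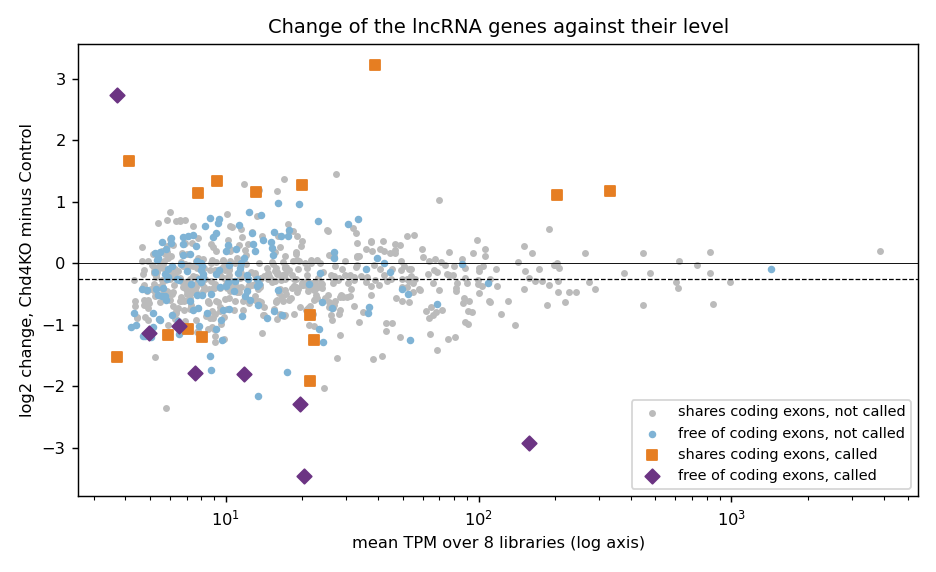
Log2 difference, Chd4KO minus Control, of each of the 750 genes against its mean TPM over the 8 libraries (log axis). Diamonds and squares are genes called at an adjusted p under 0.05, free of coding exons or sharing them; the dashed line is the median over all genes tested, -0.25. The called free genes lie below 0 except Gm48684.

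Gm48684 was the gene that was absent or nearly so in Control beta cells and present in every Chd4KO library. It had 7.71, 7.49, 6.93 and 6.46 TPM in Chd4KO, against 0.415, 0, 0 and 0.553 TPM in Control, and entered the list through Chd4KO alone. These values rested on 19, 18, 17 and 26 recovered reads in Chd4KO and 1, 0, 0 and 3 in Control, so the groups are far apart but the counts are small. The log2 difference was 2.74 ± 0.20 (SE), with an adjusted p of 0.000417. The gene starts 12158 bases from the start of Kif2a, which codes for a microtubule-depolymerising kinesin. Kif2a had 2.87 ± 0.80 TPM in Chd4KO and 2.56 ± 0.19 TPM in Control (SD, n = 4 each), a log2 difference of 0.10 with overlapping groups (adjusted p = 0.802).

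Gm44850 fell the most of all 750 genes. It had 1.56, 1.17, 2.61 and 6.80 TPM in Chd4KO libraries, against 34.0, 39.8, 42.3 and 35.5 TPM in Control libraries. The highest Chd4KO value, in replicate 4, was far below the lowest Control value, and the log2 difference was -3.45 ± 0.37 (adjusted p = 0.00157). Gm44850 shares no exon with Itgad, the integrin alpha D gene of leukocytes, in whose span it lies. The gene Itgad itself had 0.642, 0.282, 0.338 and 0.393 TPM in Chd4KO and 2.32, 3.37, 2.91 and 3.49 TPM in Control, and its log2 difference was -1.5 (adjusted p = 0.0028). Taken from log2(TPM + 1), the log2 ratio of Gm44850 to Itgad differed by -1.95 without overlap between the groups. Itgad was under 1 TPM in every Chd4KO library, so the added 1 shapes this ratio. The ratio therefore cannot show that Gm44850 fell more than Itgad, and the groups need not be separated in plain TPM. Summed leukocyte markers (8 genes, of which 4 were tested and 2 called) were 51.4 to 99.4 TPM in Chd4KO libraries and 27.9 to 52.5 TPM in Control libraries. Of these markers, Ptprc, Adgre1 and Itgam were at 0 TPM in at least 1 library. The sums overlapped narrowly, and what part leukocyte RNA has in the values of Gm44850 and Itgad was not tested.

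Gm34759 and Gm13003 also fell, each with a gap between the groups, which for Gm34759 the level rule had fixed. Gm34759 had 3.22, 3.15, 3.23 and 1.73 TPM in Chd4KO and 13.5, 15.9, 9.91 and 9.89 TPM in Control, a log2 difference of -1.79 ± 0.23 (adjusted p = 0.00435). Gm13003 had 4.28, 7.6, 4.44 and 3.11 TPM in Chd4KO and 16.5, 21, 19.4 and 18.3 TPM in Control, a log2 difference of -1.80 ± 0.24 (adjusted p = 0.00487). The coding genes nearest to them, Zfr for an RNA-binding zinc finger protein and Zbtb40 for a BTB zinc finger protein, were not called, with log2 differences of -0.22 (adjusted p = 0.56) and -0.63 (adjusted p = 0.286). Zfr lies 32634 bases from Gm34759, and Zbtb40 lies 110281 bases from Gm13003.

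The neighbours Gm27168 and Gm27167 on chromosome 8 fell together. Gm27168, one of the 3 free genes above 100 TPM on average, had 75.3, 13.7, 45.3 and 26.4 TPM in Chd4KO, against 342, 305, 142 and 310.4 TPM in Control. Its groups did not overlap, although Control replicate 3 was well below the other Control libraries, and the log2 difference was -2.92 ± 0.50 (adjusted p = 0.0164). Gm27167 had 14.6, 4.43, 4.61 and 2.81 TPM in Chd4KO and 48.9, 37.6, 17.9 and 27.0 TPM in Control. These groups were close but did not overlap, with a log2 difference of -2.28 ± 0.46 (adjusted p = 0.0321). In both genes Chd4KO replicate 1 was the highest of its group and Control replicate 3 the lowest of its group. The nearest coding gene of both, N4bp1, which codes for a ribonuclease, had 4.62 ± 3.04 TPM in Chd4KO and 4.81 ± 0.90 TPM in Control (SD, n = 4 each), with a log2 difference of -0.18 (adjusted p = 0.78). The call of Gm27168 was lost without Control replicate 1, 2 or 4 (adjusted p = 0.0631, 0.0662 and 0.0652). That of Gm27167 was lost without Chd4KO replicate 2 or 3 or without Control replicate 1, 2 or 4, with adjusted p of at most 0.118, and also without Chd4KO replicates 2 and 4 (adjusted p = 0.102).

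The remaining called free genes start next to a coding gene that runs the other way. 2810001G20Rik begins 16 bases from the start of Cox10, which codes for an enzyme of heme A synthesis. It had 3.0, 4.02, 4.33 and 4.55 TPM in Chd4KO and 10.3, 8.22, 8.31 and 9.42 TPM in Control and fell by 1.02 on the log2 scale (adjusted p = 0.0184). Cox10, from the same start region, had 7.32 ± 0.40 TPM in Chd4KO and 8.38 ± 1.10 TPM in Control (SD, n = 4 each) and was not called (log2 difference -0.17, adjusted p = 0.597). Gm12976 begins 561 bases from the start of C77080 and had 2.27, 2.57, 2.05 and 4.03 TPM in Chd4KO, against 9.77, 6.93, 5.62 and 6.30 TPM in Control. For both genes the level rule had fixed that the groups do not overlap. The log2 difference of Gm12976 was -1.13 (adjusted p = 0.0354), while C77080 differed by 0.19 (adjusted p = 0.813). Both calls were lost with each of 3 other scalings, with adjusted p of up to 0.226 for 2810001G20Rik and 0.238 for Gm12976. They were also lost without Chd4KO replicate 3 or any 1 of the Control libraries, and that of Gm12976 without Chd4KO replicate 1 or 2 as well, with adjusted p of at most 0.0876 for 2810001G20Rik and 0.123 for Gm12976.

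**Figure D3:**
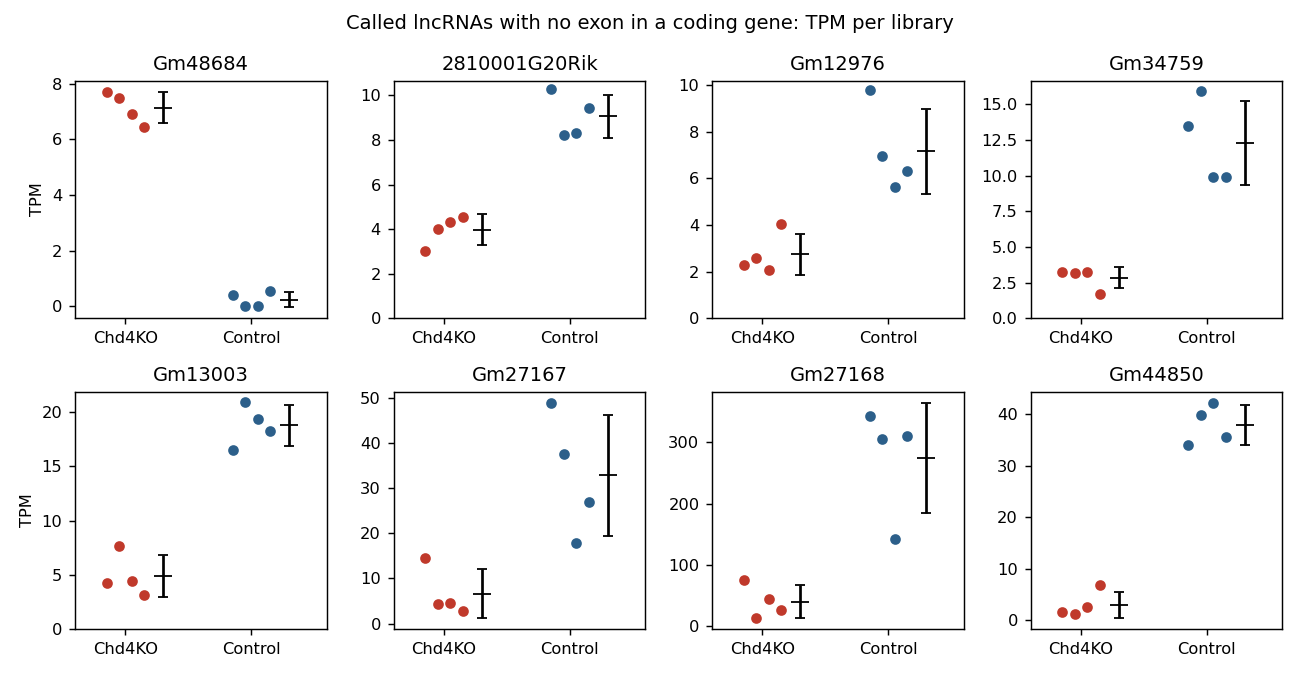
TPM of the 8 called genes with no exon in a coding gene. Each point is 1 library, Chd4KO in red and Control in blue, and the bars are the mean ± SD (n = 4 each). Gm48684 is higher in Chd4KO and the other 7 are lower. The groups do not overlap in any panel, which the level rule had fixed for Gm48684, 2810001G20Rik, Gm12976 and Gm34759.

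The 15 called genes that share exons with a coding gene mostly showed a difference close to that of the coding gene. Prss23os, across from the serine protease gene Prss23, had 119, 48.0, 63.2 and 56.6 TPM in Chd4KO and 8.25, 4.41, 7.5 and 5.63 TPM in Control, a log2 difference of 3.23 ± 0.31 (adjusted p = 0.00119). Prss23 itself rose by 3.01 on the same scale (adjusted p = 0.00136), and 54.3% of the exon length of Prss23os lies in coding exons. Gm17099 lies wholly in coding exons, across from the membrane serine protease gene Tmprss4, and had 491, 545, 463 and 334 TPM in Chd4KO and 237, 173, 187 and 205 TPM in Control. It rose by 1.18 (adjusted p = 0.0187) and Tmprss4 by 1.10 (adjusted p = 0.0334). For both genes the groups did not overlap, but which strand the reads came from cannot be told. Prss23os kept its call without each library in turn. The calls of the other 14 sharing genes were lost without Control replicate 2, with adjusted p from 0.0558 (Gm26738) to 0.137 (Gm44148), and all of these except Gm11788 were also lost without at least 1 other library. Without Chd4KO replicates 2 and 4, the calls of AC147989.1, AC165951.2 and Gm17120 were lost (adjusted p = 0.0611, 0.0889 and 0.0624). Gm17120, Gm42697 and Gm41293 had passed the level rule through 1 genotype alone.

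Other genes of this kind rose by less than Prss23os. Gm17120, across from the proline transporter gene Slc6a20a, rose by 1.66 and Slc6a20a by 1.41 (adjusted p = 0.0205 and 0.00885). Gm11788 rose by 1.33 across from Slc25a10, the mitochondrial dicarboxylate carrier gene, which was not called at 1.10 (adjusted p = 0.0635). Gm10865 rose by 1.26 across from Triobp, for an actin-binding protein (0.88, adjusted p = 0.0855). Gm44148 rose by 1.10 across from Usp18, for the enzyme that removes ISG15 from proteins (1.01, adjusted p = 0.0834), and A230065N10Rik by 1.14 across from the mitochondrial malic enzyme gene Me3 (0.64, adjusted p = 0.119). The coding partner was thus called in 1 of these 5 pairs.

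Those that fell include Gm42697, across from the growth factor gene Egf, with 2.16, 1.76, 1.83 and 0.33 TPM in Chd4KO and 6.90, 6.03, 5.17 and 5.50 TPM in Control. Its log2 difference was -1.52 (adjusted p = 0.0236), that of Egf -1.70 (adjusted p = 0.0243). AC147989.1 and AC147989.3 both lie across from Sil1, for the nucleotide exchange factor of the chaperone BiP in the endoplasmic reticulum. They fell by 1.25 and 0.85, and Sil1, with 35.5 ± 2.91 TPM in Chd4KO and 91.0 ± 8.55 TPM in Control (SD, n = 4 each), fell by 1.33 (adjusted p = 0.0033). Gm26738, with 94.7% of its exon length in coding exons, fell by 1.20 and its partner St7 by 0.90 (adjusted p = 0.0155). 1700108N11Rik fell by 1.08 across from Ovol2, for an epithelial transcription factor (-0.93, adjusted p = 0.125), and Gm41293 fell by 1.18 across from Spag1, for a protein of dynein arm assembly (-0.29, adjusted p = 0.429).

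AC165951.2 lies across from Dnah8, for an axonemal dynein heavy chain, and its nearest coding gene start is that of Glp1r, the receptor of the incretin GLP-1, at 26533 bases. It had 7.47, 7.55, 9.43 and 5.81 TPM in Chd4KO, against 68.0, 31.8, 18.5 and 23.1 TPM in Control, and the groups did not overlap. The log2 difference was -1.92 ± 0.37 (adjusted p = 0.0273), beside -2.04 for Dnah8 (adjusted p = 0.065). Glp1r had 186 ± 103 TPM in Chd4KO and 416 ± 138 TPM in Control (SD, n = 4 each), a log2 difference of -1.30 with an adjusted p of 0.217.

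Of the 15 called genes that share exons, Rptoros differed the most from its coding partner. It had 21.3, 22.7, 15.6 and 14.9 TPM in Chd4KO and 8.30, 8.96, 5.59 and 8.16 TPM in Control, and it rose by 1.16 ± 0.22 on the log2 scale (adjusted p = 0.0249). Rptor, the scaffold subunit of mTORC1, had 9.33, 6.69, 4.67 and 1.87 TPM in Chd4KO and 7.82, 6.26, 6.32 and 7.21 TPM in Control, with overlapping groups (-0.39, adjusted p = 0.571). Only 7.16% of the exon length of Rptoros lies in coding exons. The log2 ratio of Rptoros to Rptor differed by 1.55, without overlap between the groups. The call of Rptoros was lost without any 1 library except Chd4KO replicate 4, with adjusted p of at most 0.0885.

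**Figure D4:**
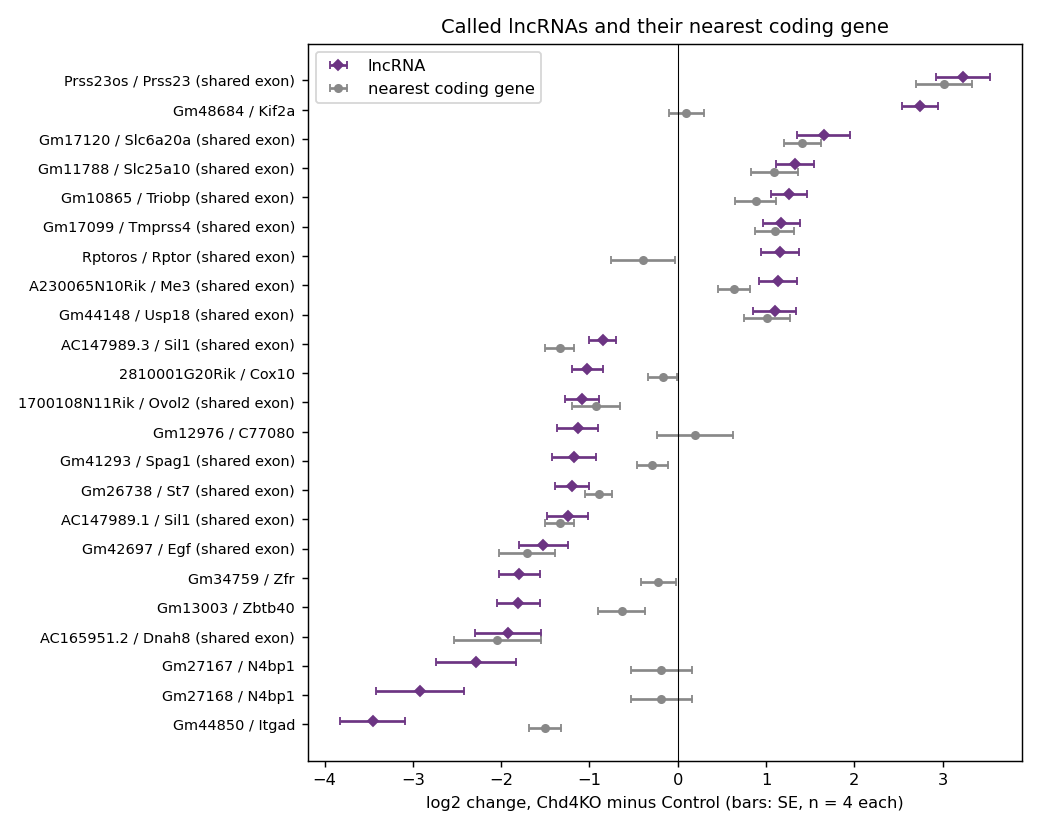
Log2 difference, Chd4KO minus Control, of the 23 called long noncoding RNA genes (diamonds) and of the nearest coding gene of each (circles), with limma's SE (n = 4 each). Pairs marked as shared exon lie mostly close together, while Gm48684, Gm27168, Gm27167 and Gm34759 lie far from their neighbours.

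The nearest coding genes were then compared as a set, since the rule did not use them. The 750 genes have 713 distinct nearest coding genes, 47 of which were too low to be tested. Of the rest 16 were called (2.4%, against 2.99% of all coding genes tested), 5 higher (0.751%) and 11 lower (1.65%). In 8 pairs both genes were called, each time in the same direction, and 7 of these pairs share an exon. The exception is Gm44850 with Itgad. For 9 called coding genes no neighbouring member was called. Among these, H1fx, a linker histone gene, rose by 1.27 while its partner Gm5577 differed by -0.05. Acvr1c, for the activin receptor ALK7, fell by 1.57, whereas Gm13544 differed by 0.70 (adjusted p = 0.28). Chn1, for a Rac-regulating chimaerin, fell by 1.29 and Chn1os1 differed by -1.57 (adjusted p = 0.0563). Kirrel3, for an adhesion protein, fell by 1.71 and Kirrel3os, which shares no exon with it, had 5.38, 5.37, 4.63 and 0.978 TPM in Chd4KO and 24, 11.8, 9.18 and 8.18 TPM in Control (-1.51, adjusted p = 0.134).

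Across the 701 pairs in which both genes were tested, the log2 differences of the noncoding and the coding gene had a Pearson correlation of 0.66. This describes genes, which are not independent replicates and share the 8 libraries. It followed the shared exon length. With 50% or more of the exon length in exons of the coding gene it was 0.95 (135 pairs), with less 0.78 (423 pairs), with overlapping spans but no shared exon 0.43 (44 pairs), and with no overlap 0.15 (99 pairs). For coding genes and their own nearest coding gene it was 0.13 without a shared exon (4186 pairs) and 0.48 with a shared exon (1135 pairs). Divergent pairs, which start within 2000 bases of each other on opposite strands, had a correlation of -0.0027 (30 pairs). By rank (Spearman), the correlation was 0.26 for the 44 pairs with overlapping spans but no shared exon and 0.10 for the 99 without overlap. In the Control libraries the noncoding gene's level was a median 189% of the coding gene's where 50% or more was shared, and 65.4% where nothing overlapped.

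**Figure D5:**
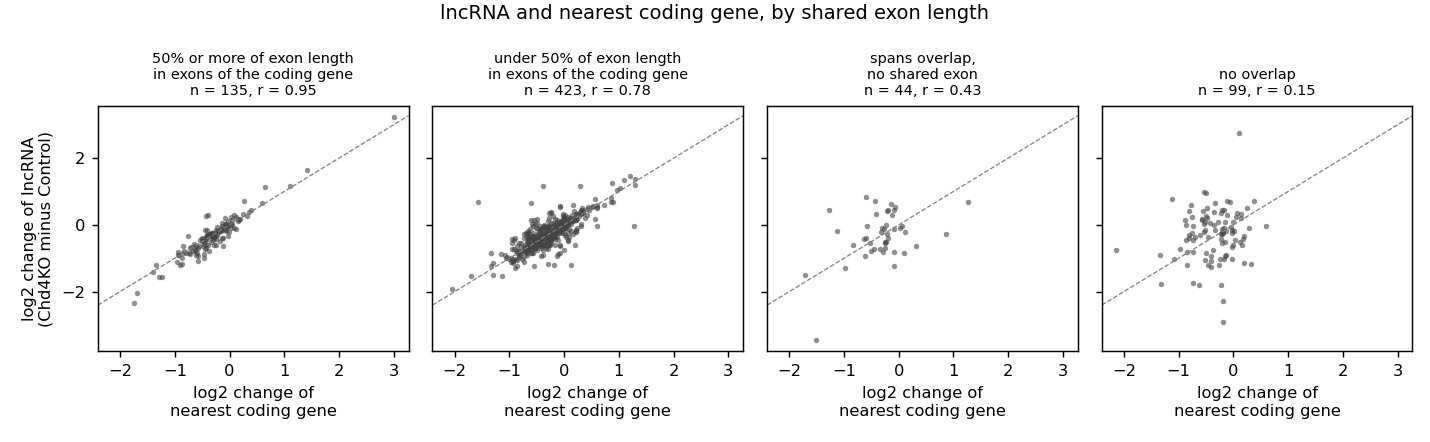
Log2 difference (Chd4KO minus Control) of each long noncoding RNA gene against that of its nearest coding gene, in 4 panels by how much exon length they share. Each point is a pair, r is Pearson's correlation, and the dashed line marks equal differences. Points follow the line where exons are shared (0.95 and 0.78) and scatter where they are not (0.43 and 0.15).

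For the 23 called genes the log2 ratio to the nearest coding gene was also compared between genotypes. It is the difference between the log2(TPM + 1) values of the pair. Where a gene of the pair is at few TPM, as Itgad and Triobp are, the added 1 weighs on the ratio. A change that both genes share is then not fully left out, and separated groups need not be separated in plain TPM. These 23 genes were picked because they differed between the genotypes in the same libraries, and the groups overlapped for none of the 23. Over a coding gene that differs little, such a gene tends to give a separated ratio by that choice alone. The ratio was not compared for the other pairs, so the count below cannot show an excess. In 11 of the 23 pairs the groups did not overlap on the log2(TPM + 1) scale. Each of these 11 had the smallest p that an exact two-sided permutation test of 4 against 4 libraries can give, 0.0286, or 0.0597 after Benjamini-Hochberg adjustment over the 23 comparisons, so none passed 0.05. They were 7 of the 8 free genes (the groups overlapped for Gm12976 over C77080) and, among those that share exons, AC147989.3, Gm10865, Rptoros and Gm41293. For Prss23os over Prss23 the log2 ratio differed by only 0.21 and for Gm17099 over Tmprss4 by 0.08, with overlapping groups.

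Of the listed long noncoding RNAs with a known role or host function, 12 were among the 750. limma called none of them, and 2 of the 12 had an unadjusted p under 0.05, Epb41l4aos and Pax6os1. The share with such a p was 19.2% of the 750 genes and 16.2% of all genes tested. Neat1 had 58.6, 47.8, 24.9 and 5.68 TPM in Chd4KO and 20.4, 93.2, 95.6 and 82.1 TPM in Control. The groups overlapped through Control replicate 1, and the log2 difference was -1.25 ± 0.73 (adjusted p = 0.419). Of 21 listed host genes of small nucleolar RNAs, 17 were tested and 1 was called, Snhg11, which M21 lists as protein coding and which is therefore not among the 750. At an unadjusted p under 0.05 there were 6, with Snhg11 higher in Chd4KO and Snhg6, Snhg15, Snhg17, Gas5 and Epb41l4aos lower. Their members here, Snhg10, Snhg18, Snhg20 and Epb41l4aos, had log2 differences of 0.49, 0.25, 0.08 and -0.84 (adjusted p from 0.236 to 0.865). The microRNA host Mir670hg had 11.4 ± 3.99 TPM in Chd4KO and 8.90 ± 1.30 TPM in Control (SD, n = 4 each). Of 14 listed growth and damage response RNAs, 6 were tested and 0 called by limma, with 1 (Ftx, not among the 750) at an unadjusted p under 0.05. Lncpint, a p53-induced RNA, differed by -1.15 (adjusted p = 0.313), 2900097C17Rik, the mouse Norad gene, by -0.66 (adjusted p = 0.482), and Tug1 by -0.16 (adjusted p = 0.75).

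Genes beside beta-cell regulators were looked at by a list of 41 genes that was drawn up after the values were seen. Next to or across from 9 of these lie 12 of the noncoding genes, and AC165951.2, near Glp1r, makes 13, of which it alone was called. Plut, antisense to Pdx1, the master transcription factor of beta cells, had 28.2 ± 8.82 TPM in Chd4KO and 45.4 ± 7.25 TPM in Control (SD, n = 4 each), with a log2 difference of -0.71 (adjusted p = 0.233) beside -0.34 for Pdx1. Pax6os1, which overlaps Pax6 without sharing an exon, had 14.5, 11.6, 11 and 7.98 TPM in Chd4KO and 18.2, 22.5, 21 and 17.3 TPM in Control. The groups did not overlap, but the difference of -0.78 was not called (adjusted p = 0.0971), nor was that of -0.50 for Pax6. Nkx2-2os had 15.6 ± 3.08 TPM in Chd4KO and 17.9 ± 1.55 TPM in Control, and 6430503K07Rik, at the same gene, 19.3 ± 5.27 and 13.7 ± 2.32 TPM (SD, n = 4 each), and neither was called. Pcsk2os1 and Pcsk2os2, across from the prohormone convertase gene Pcsk2, differed by -0.42 and -0.40, as Pcsk2 did (-0.42).

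In 6 of the 750 genes Chd4KO replicate 2 was more than 2 times as high as any other library: Gm45507, Gm47958, Gm16984, Gm37459, Plet1os and Gm48573. All 6 share exons with a coding gene, from 10.1% (Gm37459) to 100% (Gm48573) of their exon length, so their signal may belong to it. The same count was not made for the other libraries or over all genes. Gm37459 had 14.1, 174, 9.59 and 4.52 TPM in Chd4KO and 6.92, 16.6, 14.2 and 14.0 TPM in Control, and Plet1os had 22.6, 113, 16.6 and 21.7 TPM in Chd4KO and 12.7, 10.7, 10.3 and 9.66 TPM in Control. This is the library in which the 15 acinar markers summed to 41566 TPM, though Cpa1, Prss2, Pnlip and 6 others of them were at 0 in at least 1 library. What part acinar RNA has in these values was not tested.

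Which genes were called depended on the libraries and on the scaling. All 23 kept their direction in the 19 alternative fits, and Gm48684, Prss23os, Gm44850, Gm34759 and Gm13003 also kept their call in each. Of the 750 genes, 9 were higher and 14 lower in the main test. With median-of-ratios scaling the split was 28 and 12, with quantile normalisation 25 and 15, and with hormone and mitochondrial genes left out of the scaling 16 and 17. These scalings moved the median over all genes tested by 0.25, 0.23 and 0.12 on the log2 scale. Leaving out a Chd4KO library gave 7 higher and 15 lower without replicate 1, 7 and 14 without replicate 2, 4 and 8 without replicate 3, and 21 and 23 without replicate 4. Leaving out a Control library gave 5 and 6 without replicate 1, 2 and 3 without replicate 2, 4 and 8 without replicate 3, and 4 and 3 without replicate 4. Of the 23 calls, 23 remained without Chd4KO replicate 4 and 5 remained without Control replicate 2.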

How the data were processed

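Values are TPM as deposited by the authors, 55487 Ensembl genes in each of 8 tables, and 55227 of these identifiers were found in GENCODE M21. RNA with an integrity number above 8.0 was made into SMART-Seq v4 cDNA and Nextera XT libraries, per the labels' protocols. The submitters' processing notes name build mm10 and the tools HISAT2, HTSeq, DESeq2, FastQC and Trimmomatic, with no versions. No source used here gives the authors' annotation release, and 0 columns came from outside the series. TPM is scaled to a fixed total, so a larger insulin share lowers all other genes.

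From these tables, TPM times merged exon length fell on whole multiples of 1 read's worth for 98.5 to 98.7% of values above 0 (tolerance 0.05 of a read). The reads recovered in this way served for depth and an alternative fit; their number limits precision, most of all for genes with under 20 reads in a library. Nearest coding genes were found by distance between gene spans, and shared exons by overlap on either strand. Genotype was tested in R 4.3.3 with limma 3.58.1 on log2(TPM + 1), two-sided and with no other term, over genes with at least 1 TPM in at least 4 libraries, with Benjamini-Hochberg adjustment. Each library has its own number in its title, read as an animal number, so replicates were taken as separate mice. Alternatives changed the pseudocount, filter, scaling, variance model, weights, replicate block, unit and libraries.

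The members and lists were chosen with earlier results of these data known. Genes named are Chd4, the 15 highest members, every called member with its nearest coding gene, members of the family lists, those next to the level threshold, and pairs with both called; others (Kirrel3os, the neighbours of beta-cell genes, and genes high in 1 library) were chosen after their values were seen. The fit was tested on simulated data. Other steps used Python 3.11.15 (matplotlib 3.10.9, scipy 1.17.1, pandas 2.3.3, numpy 2.4.6).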

Additional observations from a re-analysis of the deposited data

Results flagged for a closer look

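Among the 52 named genes, 104 groups of 4 libraries were searched for a library that stands far from the other 3, and 7 were found; chance gives about 1 in 20 groups. Gm37401, across from Rhoa, had 261 TPM in Chd4KO replicate 4, against 517 to 533 TPM in the other Chd4KO libraries. Gm45507, across from Bnip3, had 990.0 TPM in Chd4KO replicate 2 and 303 to 371 TPM in the others of that genotype. Gm27167 had 14.6 TPM in Chd4KO replicate 1 and 2.81 to 4.61 TPM in the other Chd4KO libraries, the direction in which Gm27168 beside it also deviated. Gm34759 had 1.73 TPM in Chd4KO replicate 4, below the 3.15 to 3.23 TPM of the rest of its group. Snhg20 had 18.5 TPM in Chd4KO replicate 4 and 9.67 to 10.8 TPM in the others, and Mir670hg had 17.3 TPM in Chd4KO replicate 1 and 8.69 to 9.86 TPM in the others. Tug1 had 19.4 TPM in Control replicate 1, against 11.5 to 12.2 TPM in the other Control libraries. Of the 7, 3 lie in Chd4KO replicate 4, the library with the highest insulin share.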

How the results depend on the processing

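Counts of called genes moved with the library weights, the scaling and the libraries left out. With TPM of at least 5 only 9970 genes were tested and 220 called, while 240 of the same genes were called in the main test. The number called over all genes, 451 in the main test, was 700.0 with median-of-ratios scaling and 681 without hormone and mitochondrial genes in the scaling. It was 755 with quantile normalisation, 1364 with array weights and 785 without Chd4KO replicates 2 and 4. Members called higher were 28, 16, 25, 33 and 22 under the last 5 settings named, in that order. Members called lower were 46 with array weights and 27 without Chd4KO replicates 2 and 4. Nearest coding genes called, 16 in the main test, were 9 with a pseudocount of 0.1 and 8 with TPM of at least 5, where fewer of them were tested. They were 34, 29 and 34 with the 3 scalings, 54 with array weights and 31 without Chd4KO replicates 2 and 4. The correlation between members and neighbours was 0.70 with TPM of at least 5 and 0.43 with neighbours taken by 5′ ends. Leaving out 1 library gave 171 to 829 called genes, 2 to 21 members higher, 3 to 23 members lower, 6 to 33 nearest coding genes, correlations of 0.65 to 0.67 and member medians of -0.40 to -0.04. The rule found 1126 members at 2 TPM, 477 at 10 TPM and 414 with 5 TPM in all 8 libraries. The cause of these shifts was not tested. Deviations of same-numbered libraries had correlations of -0.0244, 0.425, 0.0773 and 0.0377, and 1 of 4 matched its own number best. These values cannot show whether the numbers pair the mice. With the replicate block 274 genes were called, with 4 members higher, 8 lower and 10 nearest coding genes. The 23 called members kept their direction in the 19 fits. Few reads limit Gm48684, Gm12976 and other low genes.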

Other observations

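Free of coding exons and with no overlap between the genotypes, but not called by limma, were 26 further genes, 5 higher and 21 lower in Chd4KO, with adjusted p from 0.0542 to 0.42. For 4 of them, Gm41349 included, the level rule had fixed that the groups do not overlap. They are given as values chosen after they were seen. Called or not, 34 of the 156 free genes (21.8%) had groups that did not overlap, against 14.8% of all genes tested. The median log2 difference over all genes tested was -0.25, and the directions of all genes without overlap were not counted. Gm17767, 28661 bases from Nabp1, had 14.5, 6.15, 10.1 and 2.50 TPM in Chd4KO and 29.5, 25.2, 25.4 and 26.8 TPM in Control, and Nabp1 differed by -1.33 on the log2 scale (adjusted p = 0.112). Gm41349, 3813 bases from Eppk1, had 3.42, 2.0, 3.67 and 1.19 TPM in Chd4KO and 5.99, 6.44, 8.59 and 6.20 TPM in Control, and Eppk1 differed by 0.33. 4632428C04Rik, 42954 bases from the Notch target gene Hes1, had 4.03, 5.48, 8.73 and 2.23 TPM in Chd4KO and 11.2, 11.5, 9.87 and 9.67 TPM in Control, while Hes1 differed by -0.24 on the log2 scale. D730003I15Rik, 6415 bases from the stress-induced transcription factor gene Atf3, had 7.12, 7.22, 8.29 and 6.71 TPM in Chd4KO and 8.70, 15.1, 15.2 and 13.9 TPM in Control, and Atf3 differed by -2.15 (adjusted p = 0.438). Among those higher in Chd4KO, Gm4285 starts 129 bases from Tpt1 and had 13.5, 13.5, 8.91 and 10.6 TPM in Chd4KO and 7.04, 6.46, 8.79 and 5.69 TPM in Control, with Tpt1 at -0.34.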
